A study of Mus musculus with 12 samples.

Results

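A set of 8 genes of skeletal muscle fibers was followed in RNA from mouse frontal cortex: Ttn, Atp2a1, Myh1, Myh2, Myh4, Acta1, Myl1 and Ckm. They were chosen by their values in the authors' gene comparison, where several had a large fold difference together with a large p, so those values are a description and carry no test here. Of the 8 genes, 7 were among the 15191 genes of the authors' deposited table, and Ckm, the creatine kinase of muscle, was not listed, so no expression value is given for it here. No listed gene had a mean count under 15.01.

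The tissue came from male C57BL/6 mice. The knockout group had the genotype Adar2-/- Gria2R/R (6 libraries) and the control group, litter mates, Adar2+/+ Gria2R/R (6 libraries), so both groups carried the edited form of Gria2 in the genome. Adar2 is the RNA editing enzyme that Adarb1 encodes. Ages were not given in the labels, and no sentence in them ties each library to its own mouse. The values used are the mean count over both conditions, the ratio between them and its p, with none per library, so the spread between libraries enters only through the authors' p-values and no SD can be given. The gene comparison names its conditions A and B without a genotype, and differences are given below as B over A with no genotype attached.

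Skeletal muscle fibers contract when myosin heads of the thick filament pull on actin of the thin filament. Titin, the giant protein encoded by Ttn, spans from the Z disc to the middle of the sarcomere as a spring, and the calcium pump encoded by Atp2a1 ends each contraction by returning calcium to its store. Cortex holds no skeletal muscle fibers, and its neurons and glia use related genes such as Atp2a2, Ckb and Actb in these roles. All 8 markers of cortical neurons that were looked up were listed in the authors' deposited table, with mean counts from 252 for Emx1 to 17440 for Slc17a7.

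The 3 myosin heavy chain genes are near copies of each other, which limits what a read can be assigned to. Over their coding sequence, Myh1 and Myh2 were 90.9% identical, Myh1 and Myh4 90.2%, and Myh2 and Myh4 88.2%, in the longest coding transcripts of GENCODE M21. The longest coding stretch identical in all 3 was 140 bases. It is shown from coding base 1509 to 1728 with 40 bases on each side, and capitals mark the 20 positions at which the 3 genes differ:
Myh1: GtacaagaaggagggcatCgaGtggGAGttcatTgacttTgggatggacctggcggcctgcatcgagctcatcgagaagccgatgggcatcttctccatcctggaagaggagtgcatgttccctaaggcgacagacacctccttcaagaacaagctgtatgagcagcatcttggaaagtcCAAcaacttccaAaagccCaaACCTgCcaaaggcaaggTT
Myh2: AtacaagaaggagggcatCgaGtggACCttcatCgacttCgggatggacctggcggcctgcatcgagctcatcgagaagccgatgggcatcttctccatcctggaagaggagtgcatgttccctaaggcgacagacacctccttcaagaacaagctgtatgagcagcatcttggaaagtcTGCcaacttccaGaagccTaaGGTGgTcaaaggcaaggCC
Myh4: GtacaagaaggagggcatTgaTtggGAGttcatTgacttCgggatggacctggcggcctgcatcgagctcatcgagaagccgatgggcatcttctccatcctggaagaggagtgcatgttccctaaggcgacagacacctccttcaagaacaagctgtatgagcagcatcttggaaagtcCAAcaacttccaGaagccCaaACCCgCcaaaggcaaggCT
Of all 50-base words in the Myh1 transcript, 26.7% also occurred in a transcript of another gene, against 26.9% for Myh2 and 18.9% for Myh4. The largest overlap of Myh1 was with Myh2 (19.7% of its words), followed by Myh4 (10.5%) and Myh8 (9.67%). For Myl1 the share was 23.4%, all of it with the pseudogene Mylf-ps. It was 2.22% for Acta1, 0.117% for Atp2a1 and 0 for Ttn and Ckm. How the authors assigned reads that match several genes is not given in the sources used here, so the split between the myosin genes is uncertain, and the value of Myl1 may include or omit reads of its pseudogene.

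The promoters of Acta1 and Myh4 are shown because both of the motifs marked here were found in them. They are the 120 bases before the RefSeq start on GRCm38.p6, printed on the gene's strand, with the TATAAA box and the CArG box, the site that serum response factor binds, in capitals:
Acta1, minus strand, chr8:123894776-123894895: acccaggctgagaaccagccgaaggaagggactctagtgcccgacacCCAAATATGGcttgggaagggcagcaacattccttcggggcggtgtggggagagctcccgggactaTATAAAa
Myh4, plus strand, chr11:67237692-67237811: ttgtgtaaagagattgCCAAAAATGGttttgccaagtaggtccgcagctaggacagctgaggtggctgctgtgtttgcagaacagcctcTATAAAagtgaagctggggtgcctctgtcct
TATAAA on the gene's strand was found in 3 of the 8 members (Acta1, Myh1 and Myh4), beside 4.19% of all 32851 windows of this length. A CArG box on either strand was found in 2 of 8 (Acta1 and Myh4), beside 0.749%. CANNTG, the letters of an E box, was found on either strand in 2 of 8 (Atp2a1 and Myh4), beside 40.2%, and a MEF2 site in 0 of 8, beside 1.33%. A match here is a match of letters only.

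Titin had the highest mean count of the members. In the authors' deposited table, Ttn had a mean normalized read count of 318 over both conditions. Its level was 5.27-fold higher in B than in A (log2 ratio 2.40), and the p was 0.499 (adjusted p = 1 in the authors' deposited table). Of 3877 other genes with a mean count from 0.5 to 2 times that of Ttn, none had a larger log2 difference in either direction and 3 were past 2-fold. By mean count the nearest genes to Ttn were Hdac10 and Pskh1, for which the authors' deposited table gave log2 ratios of -0.07 and -0.13. Titin mRNA is very long, and per kilobase of its longest transcript (106824 bases) its mean count was 2.98.

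The calcium pump gene Atp2a1 had the largest ratio of the members. With a mean count of 25.9 over both conditions, it was 12.8-fold higher in B in the authors' deposited table (log2 3.68). The p was 0.350 and the adjusted p was 1 in the authors' deposited table. It ranked 4th among all listed genes by the size of its log2 ratio. Its widely expressed relative Atp2a2, with a mean count of 23588, had a log2 ratio of 0.002 in the authors' deposited table, and Atp2a3 stood at 0.03.

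The 3 myosin heavy chain genes of fast fibers differed among themselves. Myh4, the isoform of the fastest (type IIB) fibers, had a mean count of 70.9 and was 2.91-fold higher in B (log2 1.54, p = 0.632) in the authors' deposited table. Myh2, the isoform of type IIA fibers, had a mean count of 60.4 and a ratio of 1.40-fold (log2 0.49, p = 0.509) in the authors' deposited table. Myh1, the isoform of type IIX fibers, had a mean count of 45.7 and a ratio of 1.27-fold (log2 0.34, p = 0.865) in the authors' deposited table. All 3 ratios pointed the same way, with Myh4 alone past 2-fold. The genes lie in 1 cluster in the order Myh3, Myh2, Myh1, Myh4, Myh8 and Myh13. The other 3 members of that cluster were higher in B as well in the authors' deposited table, with log2 ratios of 0.18 for Myh3, 0.49 for Myh8 and 0.46 for Myh13, the first and second of which are the embryonic and perinatal isoforms. The flanking gene Sco1 stood at 0.003 in the authors' deposited table. Since these genes have stretches of sequence in common and lie in 1 cluster, their common sign is not taken as 6 separate observations.

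A ratio past 2-fold with a large p was found for Ttn, Atp2a1 and Myh4 and not for the other 4 listed members, of which Acta1 and Myl1 had an unadjusted p under 0.05. Acta1, the actin of the skeletal muscle thin filament, had a mean count of 236 and was 1.33-fold higher in B in the authors' deposited table (log2 0.41), with p = 0.0316 and an adjusted p of 1. Myl1 encodes a light chain that sits on the neck of the fast myosin head. Its mean count was 64.8, and in the authors' deposited table it was 2.51-fold higher in A (log2 ratio of B over A -1.33, p = 2.61e-04, adjusted p = 0.457). Myl1 was thus opposite in sign to the other 6 listed members and ranked 11th of all genes by p, without passing the adjusted threshold of 0.05.

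**Figure D1:**
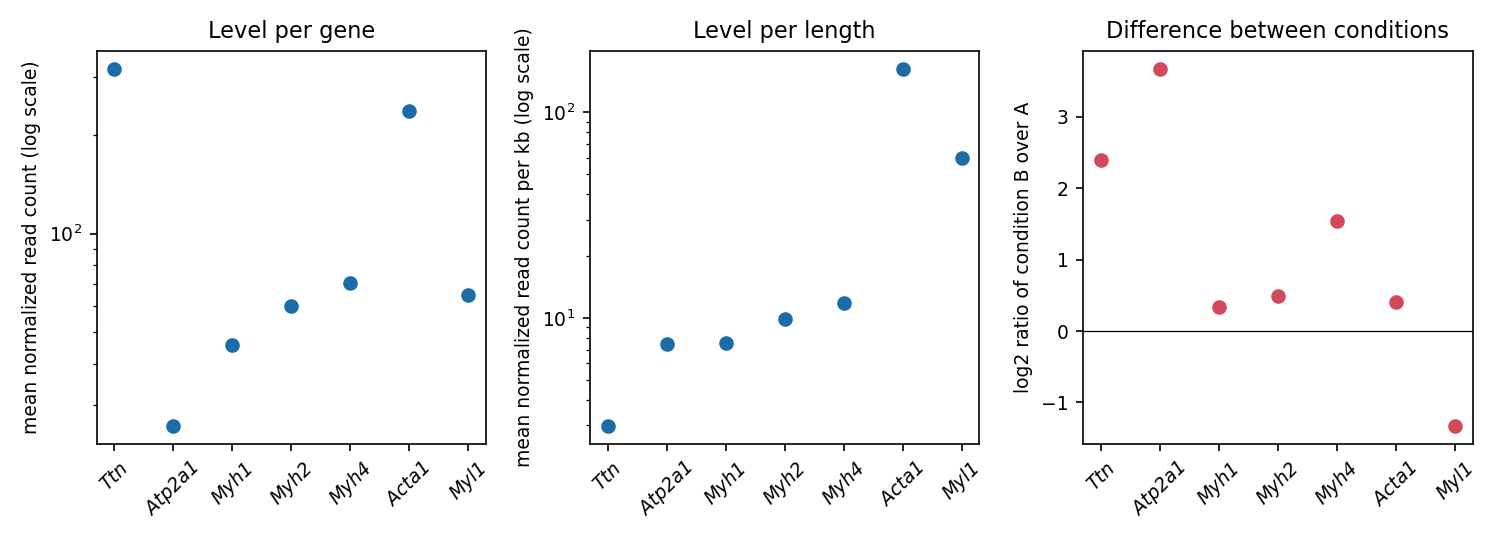
The 7 listed genes by mean normalized read count over both conditions (left, log axis), by mean count per kilobase of the longest coding transcript (middle, log axis) and by log2 ratio of condition B over A (right); points are the authors' values or made from them, with no error bars because no value per library was used. Ttn is highest by count and lowest per length, and Myl1 is the gene below 0 on the right.

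Ranked per length, the order of the members changed. Per kilobase of transcript and over both conditions, Acta1 stood highest at 163, followed by Myl1 at 59.9. Myh4 (11.8), Myh2 (9.92), Myh1 (7.52) and Atp2a1 (7.46) lay well below them, and Ttn, first by count, was last at 2.98. Acta1 and Myl1, the highest per length, were the members with an unadjusted p under 0.05, and Ttn and Atp2a1, the lowest, had the largest ratios. Since ratio and p chose the members, no link between level per length and either of them is read from this order.

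None of the 7 listed members had an adjusted p under 0.05 in the authors' deposited table, where 3 of all 15191 listed genes (0.0197%) did. An unadjusted p under 0.05 was found for 2 members, Acta1 and Myl1, and for 1.86% of all genes. Past 2-fold in either direction were 4 members, Ttn, Atp2a1, Myh4 and Myl1, and 33 genes in all (0.217%). Higher in B by at least 2-fold were 3 members and 26 genes in all (0.171%), and higher in A were Myl1 and 7 genes in all (0.0461%). At least 4-fold higher in B were Ttn and Atp2a1 and 13 genes in all (0.0856%). The members' counts were fixed by the way they were chosen, and nothing is read from them. The median log2 ratio was 0.49 over the 7 members and -0.01 over all listed genes.

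**Figure D2:**
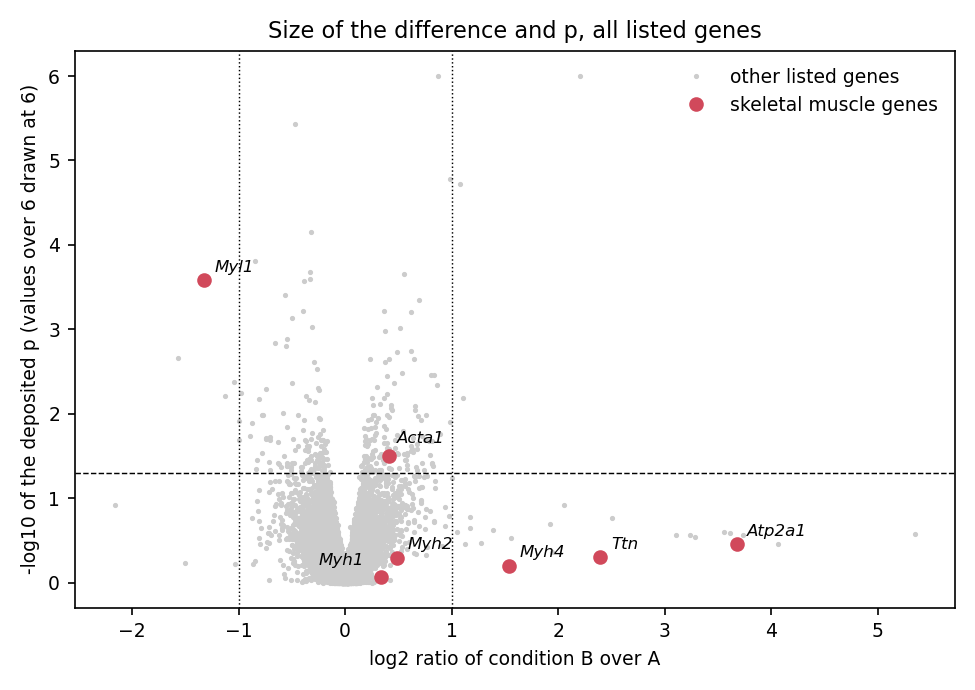
Log2 ratio of condition B over A against -log10 of the deposited p for all 15191 listed genes (grey) and the 7 listed muscle genes (red), with dotted lines at 2-fold, a dashed line at the unadjusted threshold, and values over 6 drawn at 6. Ttn, Atp2a1 and Myh4 lie far to the right and low on the p axis, whereas Myl1 lies to the left and high.

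The size of a ratio and its p can be turned into an approximate standard error, the log2 ratio divided by the normal quantile of the two-sided p. This is a rough measure, since the authors' test is a count model, and it becomes unsure as p nears 1. It can also come out far too low where the ratio is near 0, even when p is not close to 1. The Z disc gene Actn3 (mean count 30.1, log2 ratio 0.006) had a value of 0.0147. Genes with ratios near 0 are among those of like count, so the medians and factors below are rough as well. How far such genes moved the medians was not tested. It was 3.55 log2 units for Ttn, against a median of 0.134 for the 3877 genes of like mean count, or 26.5 times as large. For Myh4 it was 3.23 against 0.225 (14.3 times), and for Atp2a1 3.93 against 0.335 (11.7 times). Myh2 had 0.741 against 0.242 (3.06 times). Myh1 had 2.0 against 0.268 (7.45 times), but its deposited p of 0.865 is close to 1, where the measure is unsure. The value was close to that of like genes for Myl1, at 0.364 against 0.234 (1.55 times), and for Acta1, at 0.191 against 0.145 (1.32 times). All 7 lay above the median of genes of like count, but the factor ran from 1.32 to 26.5. Over all genes the median was 0.127, and 545 genes (3.59%) lay above 1, among them Ttn, Atp2a1, Myh4 and Myh1. The measure is made from the size and the p by which the members were chosen, so their factors are a description and carry no test.

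**Figure D3:**
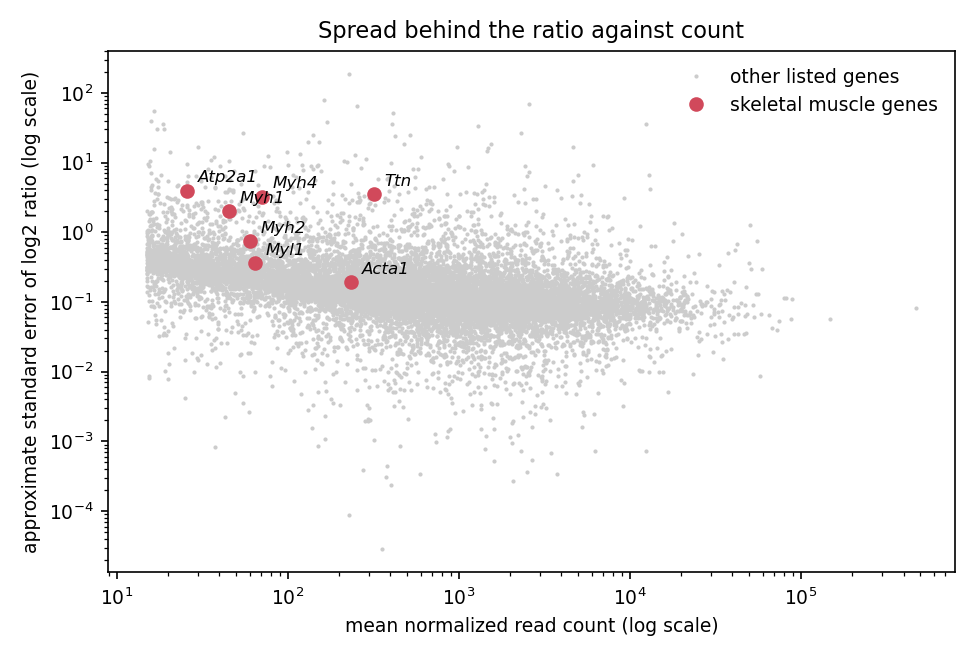
Approximate standard error of the log2 ratio against mean normalized read count for all listed genes (grey) and the 7 listed muscle genes (red), both on log axes. Ttn, Atp2a1, Myh4 and Myh1 stand in the upper part of the cloud at their count, and Acta1 and Myl1 stand nearer its middle. Of other genes of like count, 30 of 3877 had a larger value than Ttn and 44 of 1907 a larger value than Atp2a1. The same held for 42 of 2212 beside Myh4 and 79 of 2108 beside Myh1.

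Single genes of like count illustrate the values; they add no support, since size and p chose the members and Slc17a8 was picked for its p. Slc17a8, a vesicular glutamate transporter with a mean count of 68.5, had a log2 ratio of 1.08 with p = 1.88e-05 in the authors' deposited table. Myh4, with a mean count of 70.9 and a log2 ratio of 1.54, had p = 0.632 in the authors' deposited table. Within the myosin cluster, Myh8 and Myh2 had the same log2 ratio to 2 decimals, 0.49, at mean counts of 51.0 and 60.4, yet p was 0.0298 for Myh8 and 0.509 for Myh2 in the authors' deposited table. Whether the spread of Ttn, Atp2a1 and the myosin genes came from 1 library, and whether it came from muscle tissue carried along with the cortex, was not tested, since no value per library was used. In bulk RNA, more cells of a type and more RNA per cell cannot be told apart.

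Other muscle genes were looked up through 7 lists, which together hold 99 further genes. Of these, 43 were listed in the gene table and 56 were not. Among those not listed were the fast troponins Tnnt3, Tnni2 and Tnnc2, the regulatory light chain Mylpf, the calcium store protein Casq1, myoglobin (Mb), the mitochondrial creatine kinase Ckmt2, and the transcription factors Myod1 and Myog. None of the 43 passed an adjusted p of 0.05 (0.0197% of all genes did), and none was past 2-fold (0.217% did), so counts of 0 are near the background. Of the 43, 25 were higher in B and 18 lower, with a median log2 ratio of 0.01, beside 47.1% higher in B and a median of -0.01 over all genes. An unadjusted p under 0.05 was found for 3 of the 43, Myh8 and Ryr1 higher and Myom3 lower in B, and for 1.86% of all genes. An approximate standard error above 1 was found for 4 of the 43 (9.3%, beside 3.59% of all genes): Clcn1 (8.85), Ldb3 (1.63), Musk (1.22) and Des (1.05). Clcn1, Ldb3 and Musk had p of 0.991, 0.937 and 0.858 in the authors' deposited table, close to 1, where the measure is unsure.

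The other thick filament genes of fast fibers had log2 ratios from -0.37 to 0.49, and the thin filament genes from -0.13 to 0.29. Myom3, which encodes a protein of the M band that holds thick filaments in register, had a mean count of 145 (log2 -0.37, p = 0.00622) in the authors' deposited table. Mybpc1, a myosin binding protein, stood at -0.27 (p = 0.0569) in the authors' deposited table. Neb encodes nebulin, the giant protein that runs along the thin filament, and had a log2 ratio of 0.29 with p = 0.422 in the authors' deposited table. Its mean count, 280, was near the 318 of Ttn, the other giant of the sarcomere, and its approximate standard error was 0.355 against 3.55. The tropomyosin gene Tpm2 stood at -0.13 and Tmod1, which caps thin filaments, at -0.03 in the authors' deposited table.

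Among partners of titin and Z disc genes, 11 of 27 symbols were listed, 6 higher in B and 5 lower, beside 47.1% of all genes higher in B. Des, the intermediate filament desmin, was the farthest from 0, with a mean count of 39.8 (log2 0.76, p = 0.472) in the authors' deposited table. Tcap, which caps titin at the Z disc, stood at 0.09 in the authors' deposited table. Nrap (-0.35) and Flnc (-0.28) had negative log2 ratios in the authors' deposited table.

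Of calcium handling genes, 7 of 13 were listed and 6 of them were higher in B, beside 47.1% of all genes. Some of the 6 ratios were near 0, such as Jph1 (0.01) and Srl (0.03), so no direction is read from the count. Cacna1s, the voltage sensor of the muscle membrane, had a mean count of 20.0 (log2 0.76, p = 0.134) in the authors' deposited table. Ryr1, the calcium release channel of the same complex, which neurons also express, had a mean count of 872 (log2 0.28, p = 0.0268, adjusted p = 1) in the authors' deposited table. Jsrp1 stood at 0.26 and Clcn1, the muscle chloride channel, at -0.10 in the authors' deposited table.

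Of the energy supply genes, 2 of 7 listed genes were higher in B, beside 47.1% of all genes, and the median log2 ratio was -0.09. Some of these ratios were near 0, such as Eno3 (0.002) and Phkg1 (-0.006), so no direction is read from the count. Slc2a4, the glucose transporter of muscle and fat, stood at -0.33, Cox6a2 at -0.26 and the muscle glycogen phosphorylase gene Pygm at -0.19 in the authors' deposited table, each with p over 0.1. Chrna1 and Musk, of the nerve-muscle synapse, were the listed genes of the regulators list and had log2 ratios of 0.35 (p = 0.349) and 0.22 (p = 0.858) in the authors' deposited table. In the slow fiber and heart list, 4 of 7 listed genes were higher in B, and the farthest from 0, Tnnt2, stood at 0.20 (p = 0.156) in the authors' deposited table. Past 1.5-fold were 2 of the 43 genes, Des and Cacna1s, and 181 of all genes (1.19%).

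**Figure D4:**
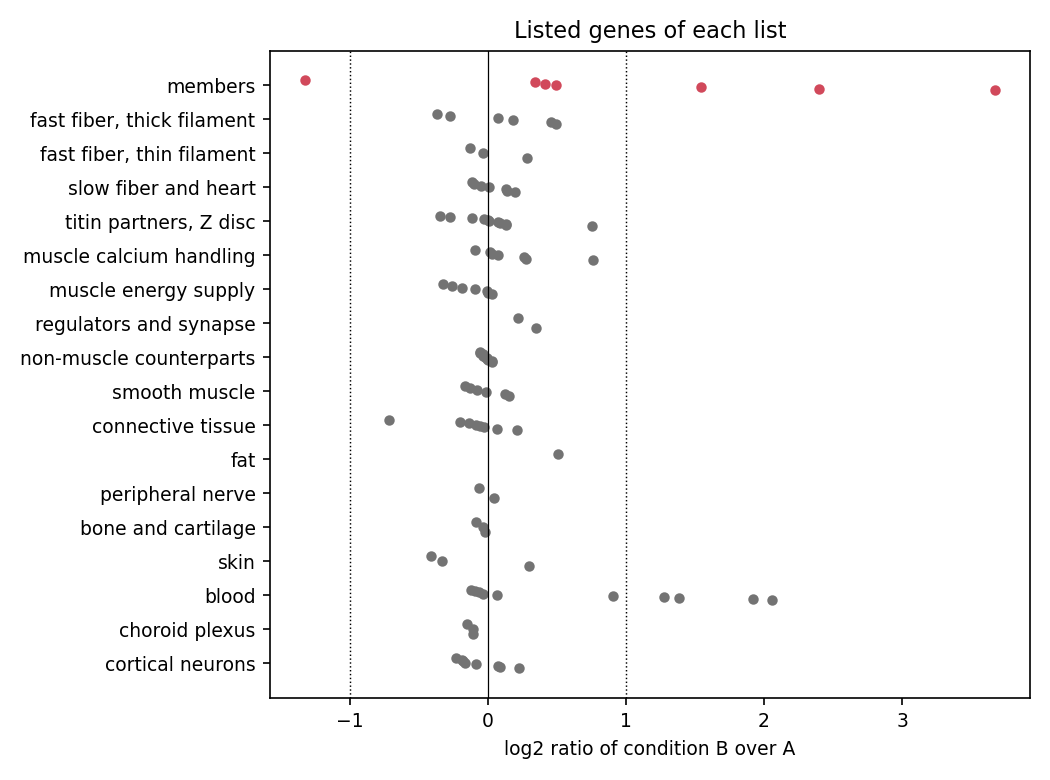
Log2 ratio of condition B over A for each listed gene of the members (red) and of the other 17 lists (grey), 1 point a gene, with dotted lines at 2-fold. The muscle lists other than the members lie between -0.37 and 0.76, and the blood list is the other one with genes past 2-fold.

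Markers of other tissues that could travel with a dissected cortex were counted in the same way. Non-muscle counterparts of the members (11 of 13 symbols listed, among them Atp2a2, Ckb, Actb, Actg1 and Myh10) had log2 ratios from -0.06 to 0.03. Smooth muscle genes (6 of 9 listed) ranged from -0.17 to 0.15. Connective tissue genes (8 of 10 listed) ranged from -0.72 to 0.21, and Col3a1, a collagen of soft tissue, stood at -0.72 (p = 0.0370, adjusted p = 1) in the authors' deposited table. Of 9 fat markers only Plin4 was listed, at 0.50 (p = 0.322) in the authors' deposited table, and Adipoq, Plin1 and Fabp4 were not listed. Pmp2 and Prx of peripheral nerve were not listed, while the authors' deposited table gave -0.07 for Gldn and 0.04 for Cdh19. Bone and cartilage genes (3 of 7 listed) lay between -0.09 and -0.02, skin genes (3 of 5) between -0.42 and 0.30, and choroid plexus genes (3 of 5) between -0.15 and -0.11. Of the cortical neuron markers, Neurod6 had the highest log2 ratio, 0.22, in the authors' deposited table.

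Blood was the other list with large ratios beside large p. Of its 13 markers 10 were listed, and 4 genes of neutrophil granules and cytoplasm were past 2-fold, all higher in B: Ngp (log2 2.06, p = 0.121), Ltf (1.92, p = 0.202), S100a9 (1.39, p = 0.242) and S100a8 (1.27, p = 0.342) in the authors' deposited table. For the globin genes, the authors' deposited table gave -0.04 for Hbb-b1 and -0.09 for Hba-a1, and for Slc4a1, the anion exchanger of the red cell membrane, 0.91 (p = 0.370). The part of any of these tissues in the values of Ttn, Atp2a1 and the myosin genes was not tested.

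Large ratios with large p were found beyond muscle as well. Of the 33 genes past 2-fold, 26 had p of 0.05 or more, Ttn, Atp2a1 and Myh4 among them, and the median p of the 33 was 0.255. Among the 15 largest log2 ratios in the direction of most members, Atp2a1 was 4th and Ttn 11th. Above Atp2a1 stood 5430413K10Rik at 5.35 (p = 0.269), Plunc, a secreted protein of the nasal and upper airway lining, at 4.07 (p = 0.347), and mmu-mir-2133-2.1 at 3.74 (p = 0.272) in the authors' deposited table. Between Atp2a1 and Ttn came AC154767.1, AC137844.1, the mitochondrial leucyl-tRNA synthetase gene Lars2, AL928940.2, AC129179.1 and mmu-mir-689-2.1, with log2 ratios from 3.62 down to 2.50 in the authors' deposited table. Below Ttn came Adarb1, the targeted gene, at 2.21 with a p of 1.21e-130 (its level was not used to name the conditions), Ngp at 2.06 and Igk-C, an antibody light chain, at 1.94 in the authors' deposited table. Of these, Ttn had the highest p, at 0.499, and Igk-C followed at 0.437 in the authors' deposited table. The mean count of Plunc was 37.7 in the authors' deposited table, and its p of 0.347 lay next to the 0.350 of Atp2a1.

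Exon bins, the pieces into which the authors divided each gene to compare exon usage between genotypes, were listed for 3 of the 8 members. No bin of the exon table had a mean count under 20.0, and Atp2a1, Myh1, Myh2, Myh4 and Ckm had no listed bin. Acta1 had 4 bins, Myl1 had 1 and Ttn had 1. Of the 5 with a p none had an adjusted p under 0.05 (0.00738% of 149137 tested bins did) and none had an unadjusted p under 0.05 (1.67% did) in the authors' deposited table. This table names its genotypes, and its ratios are given as control over Adar2 knockout. A bin's ratio describes its usage within the gene, not the level of the gene.

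The Acta1 bins E001, E002, E003 and E004 were given log2 ratios of 0.08, -0.11, -0.06 and 0.05 and p from 0.312 to 0.759 by the authors' deposited table. Their mean counts were 113, 90.0, 61.7 and 36.0 in the authors' deposited table. The listed Myl1 bin, E008, had a log2 ratio of -0.08 (p = 0.522) and a mean count of 25.3 in the authors' deposited table, beside the 2.51-fold difference of the whole gene. The listed Ttn bin, E046, had a mean count of 50.4 in the authors' deposited table, with no ratio or p. That bin mean equals 15.8% of the mean count of the whole Ttn gene, which is not a share of its reads. Bin means do not add up to gene means: the 4 Acta1 bins sum to 301, above the 236 of the whole gene. Where bin E046 lies in Ttn is not given in the sources used here, and the bins of the authors' annotation were not matched to exons here.

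The dispersion of a bin is the spread that the authors' count model assigned to it. It falls as the mean count grows, so each bin was set beside bins with a mean count within 5% of its own. The Acta1 bins had dispersions of 0.0125, 0.0151, 0.0182 and 0.0279 in the authors' deposited table, where the medians of bins of like count were 0.0122, 0.0142, 0.0185 and 0.0283. Myl1 E008 had 0.0393 against a median of 0.0383, and Ttn E046 had 0.0213 against 0.0216. From 35.9% (Ttn) to 76.4% (Acta1 E002) of bins of like count had a lower dispersion, and all 6 member bins lay under the 95th percentile, which was 0.0538 at the count of the Ttn bin. The dispersions follow a lower edge that depends on the count alone: of 574 other bins with a mean count within 0.5% of that of Ttn E046, 72.8% had a dispersion within 2% of the lowest. Ttn E046 (0.387% above the lowest), Acta1 E003 (0.366%) and Acta1 E004 (0.413%) lay on this edge, and Acta1 E001, Myl1 E008 and Acta1 E002 lay 3.52%, 4.86% and 8.37% above it. A value on the edge gives a lower limit shared by most bins of that count, so it does not measure the spread of Ttn between libraries. The comparison is of exon usage within a gene, so no bin's dispersion, on the edge or above it, is read here as the spread of a gene's level. The highest dispersion of any listed bin was 1.02.

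**Figure D5:**
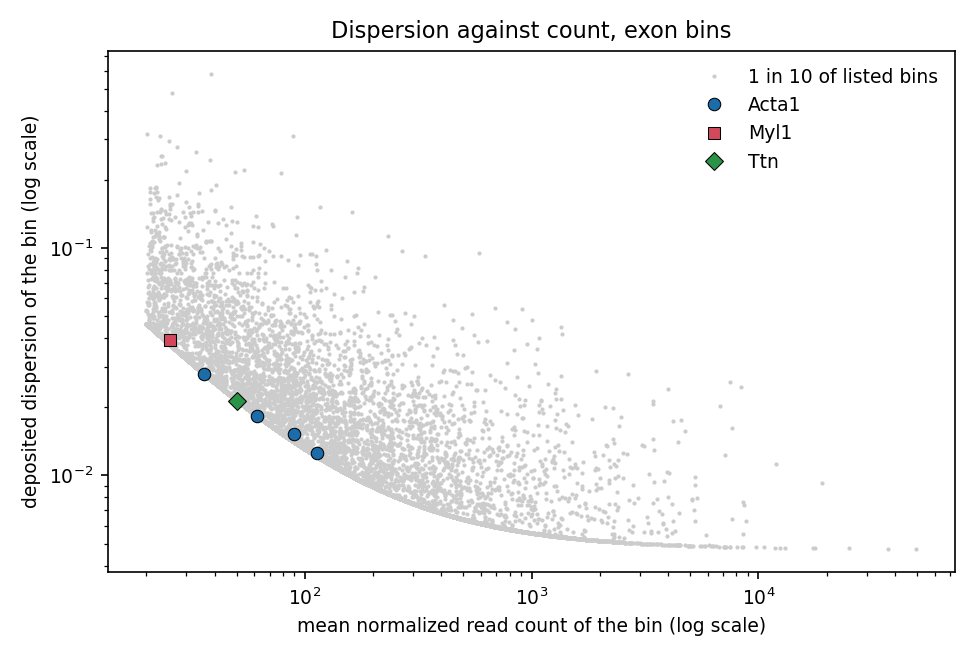
Deposited dispersion against mean normalized read count of exon bins, both on log axes, with 1 in 10 of all listed bins in grey and the 6 bins of Acta1, Myl1 and Ttn in colour. The member bins lie on or just above the lower edge, with dispersions from 0.0125 to 0.0393.

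Bins of the other muscle genes were counted beside them. In 24 genes 262 bins were listed, of which 135 had a p, none passed the adjusted threshold and 3 had an unadjusted p under 0.05. Editing was listed at 143 sites, of which 0 lay in a member and 0 in any of the other muscle genes. Of all genes in the gene table, 92 (0.606%) held a listed site, so a count of 0 is near the background.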

How the data were processed

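Total RNA was extracted with Trizol and made into stranded libraries after ribosomal RNA removal, per the labels' protocols. The submitters' processing notes name the build mm9 and, without roles, HTSeq and DESeq, SAMtools, Bowtie2 2.02.0 and TopHat2 2.0.6. The strand setting of the counting is not given in the sources used here.

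Per the file headers, the gene table holds the authors' mean normalized count (a signal) over both conditions, the ratio of B over A, the log2 of it, and p-values before and after adjustment. The mean of each single condition (2 columns) was left out, because neither header says which genotype it is. The exon table holds a deposited mean count per bin, a dispersion (a score), p-values and the log2 ratio between named genotypes, per the file headers. The editing table holds the deposited percent of edited reads per site, with another kind of deposited value, the position; only its gene names were used. Depth per library is unknown.

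The authors' p-values were used as deposited, with an adjusted p under 0.05 across all genes or bins. The approximate standard error was computed with the normal quantile of scipy 1.17.1. The Benjamini-Hochberg adjustment was computed with numpy, and it gave the values of scipy on simulated data. The simulated p-values were made with the normal formula that the standard error inverts. Its recovery there was fixed in advance and says nothing of how well the measure suits the deposited p-values. Genes of like count had 0.5 to 2 times the mean count; bins were set beside bins within 5% of their mean count in the report and, as first planned, within 0.5 to 2 times. Of the exon table's 13536 gene identifiers, 12642 matched a symbol in GENCODE M21. Promoters came from RefSeq on GRCm38.p6 and 8 of 8 members matched; transcripts came from GENCODE M21, and neither was joined to mm9 positions. Named genes were the members, the 4 largest log2 ratios of each muscle list (3 of other lists), the 15 largest in the members' main direction, and the genes nearest a member in count; others, such as Slc17a8, Sco1, Tcap and the genes named as not listed, were chosen after values were seen. The members and lists were chosen with earlier results of these data known. Some genes that the rule would name are not reported here.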

Additional observations from a re-analysis of the deposited data

How the results depend on the processing

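Of 18 alternative settings, 3 moved a count by over 1.5 times or took the share of bins outside its counting interval. At 4-fold in place of 2-fold, 2 members passed in place of 4, 3 passed once genes under a mean count of 50 (Atp2a1) were left out, and at 1.5-fold 2 of the other listed muscle genes passed in place of 0. Of the 6 member bins, 16.7% had a dispersion above the median of bins with 0.5 to 2 times their mean count, 66.7% when set beside all listed bins and 50% beside bins within 5% of their count, a window chosen after seeing the data; 4 of the bins are of Acta1, so they are not independent. The count of members called with the deposited p-values stayed at 0 under the 3 other thresholds or adjustments tried for genes and for bins. An unadjusted p under 0.05 was found for 2 member genes and 0 member bins. For bins the 0 could not change, since their lowest deposited p was 0.312. For genes, the setting with a mean count of at least 100 left out Myl1 (64.8), the member with the lowest p, so its 0 says nothing of Myl1. Centring the log2 ratios on the median of all genes (-0.01), an alternative chosen after seeing the data, kept 6 of 7 listed members higher in B. Leaving out libraries, other count tests and other normalizations were not run, because they need separate libraries. No paired analysis was possible because only comparisons between whole groups were used, and replicate numbers follow accession order. Depth per library was not given, so its part in the precision of the ratios was not tested.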

Other observations

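Genes past 2-fold in the direction of Myl1, higher in condition A, were 7 in number, and none of the other 6 belongs to muscle. In the authors' deposited table, H2-Ea-ps, a pseudogene of the class II antigen presentation family, had a mean count of 31.8 (log2 ratio -2.16, p = 0.121). Rps18-ps3, a copy of a ribosomal protein gene, stood at -1.57 (p = 0.00218) and H2-T10 at -1.04 (p = 0.00419) in the authors' deposited table. S100a5, known from olfactory sensory neurons, stood at -1.51 with p = 0.581, and Slc18a2, the vesicular monoamine transporter, at -1.03 with p = 0.610, in the authors' deposited table. Chst9 stood at -1.13 (p = 0.00623) in the authors' deposited table. Of these genes, S100a5 and Slc18a2 had approximate standard errors of 2.73 and 2.03 log2 units, below the 3.55 of Ttn and the 3.23 of Myh4, and Chst9 (0.412) and H2-T10 (0.364) were near the 0.364 of Myl1.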
